A study of Mus musculus with 9 samples.

Results

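Replication-dependent histone genes, 41 of the 2889 genes in the deposited sample table, were followed by histone class in T cells kept in 3 media. Members were the rows whose symbol is that of a clustered H2A, H2B, H3 or H4 gene (H2ac, H2bc, H3c or H4c with a number), of an H1 gene from H1f1 to H1f5, or H4f16. They comprised 3 H1, 4 H2A, 15 H2B, 6 H3 and 13 H4 genes. The rule reads symbols only, but it was set with earlier results of these data known. The sample table also lists only genes that the authors called changed in these samples, so the set is not independent of the values. CD3+ T cells were isolated by negative selection from the spleens of 3 wild-type C57BL/6 mice, and each mouse gave 1 sample for each medium. The cells were kept for 4 h in unconditioned medium (RPMI), in medium conditioned by stromal cells or in medium conditioned by adipocytes. The labels name no altered gene and no other agent in any group, and give no age. The unconditioned samples are the controls, and the series asks how the surroundings of T cells change their transcripts.

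Histones package DNA: H2A, H2B, H3 and H4 form the core of the nucleosome, and H1 binds the linker DNA at its edge. The replication-dependent genes lie in clusters, lack introns as a rule and are transcribed mainly while DNA is copied in S phase. Their mRNAs characteristically end in a stem-loop that is bound by the protein SLBP, in place of a poly(A) tail. Some members are also made as polyadenylated mRNA, and H2bc21 and H2bc4 are known for this. The different H4 genes encode the same protein, so a change from 1 H4 gene to another leaves the protein sequence unchanged. The cDNA kit named in the labels, SMART-seq v4, primes at poly(A) tails. A transcript that ends at the stem-loop has no such tail, so the values below are not a measure of total histone mRNA, and the amount of mRNA and its polyadenylated share cannot be told apart.

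The stem-loop was looked for in the GENCODE vM21 transcripts of the members, since it is the feature that defines this kind of mRNA. It was present after the stop codon in 29 of the 41 members (70.7%), against 14 of 21850 other protein-coding genes (0.0641%). The following 8 show its main forms; capitals mark the 16 bases of the stem and loop, lower case the 5 bases on each side.
H1f4: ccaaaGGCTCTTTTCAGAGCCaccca
H2ac20: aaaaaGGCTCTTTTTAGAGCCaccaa
H2bc3: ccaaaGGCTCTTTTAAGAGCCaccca
H3c1: ccaaaGGCTCTTTTCAGAGCCacaca
H4c18: ctaaaGGCCCTTTTCAGGGCCatcca
H4c4: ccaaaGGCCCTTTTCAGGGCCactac
H4c14: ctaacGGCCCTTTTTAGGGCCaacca
H4c2: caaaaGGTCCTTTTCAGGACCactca
The form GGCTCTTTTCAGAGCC, as in H1f4 and H3c1, was shared by 12 members. The form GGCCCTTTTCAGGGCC, as in H4c18 and H4c4, was found in 7 members, all of class H4. H2bc3 carries a form shared by 4 members. No stem-loop was found in 12 members. Of these, 7 have models that stop at the end of the coding region, among them H2ac13, H2ac15, H2bc13 and H3c10, so the models do not reach where a stem-loop would lie. H2bc4, H2bc21, H2bc23 and H2bc24 have long models, and H1f1 a short one, without these bases.

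Promoters of RefSeq (GRCm38.p6) were matched to 35 of the 41 members, with 36 start sites, and are shown because motifs differ between the classes. The 250 bases before each start were searched on both strands for CCAAT (the box bound by NF-Y), TATAAA, ATTTGCAT (the octamer bound by Oct-1), GGTCCG (an element of H4 promoters) and AAACACA (the H1 box). A match may overlap another, as GGTCCG read on the other strand and CCAAT do in H3c11. The last 150 bases before the start are printed for 5 members, with every match to these motifs or their reverse complements in capitals.
H4c18 (chr13:21832198-21832347, minus strand): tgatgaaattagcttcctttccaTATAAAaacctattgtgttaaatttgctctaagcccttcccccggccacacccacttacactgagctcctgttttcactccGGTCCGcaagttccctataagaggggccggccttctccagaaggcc
H4c4 (chr13:23581418-23581567, plus strand): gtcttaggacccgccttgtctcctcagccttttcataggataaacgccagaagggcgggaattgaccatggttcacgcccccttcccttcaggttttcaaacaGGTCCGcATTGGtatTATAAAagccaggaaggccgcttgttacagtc
H2bc3 (chr13:23746584-23746733, plus strand): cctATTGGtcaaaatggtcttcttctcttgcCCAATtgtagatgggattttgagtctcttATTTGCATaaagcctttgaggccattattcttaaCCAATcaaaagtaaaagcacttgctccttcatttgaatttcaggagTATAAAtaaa
H2ac6 (chr13:23683960-23684109, minus strand): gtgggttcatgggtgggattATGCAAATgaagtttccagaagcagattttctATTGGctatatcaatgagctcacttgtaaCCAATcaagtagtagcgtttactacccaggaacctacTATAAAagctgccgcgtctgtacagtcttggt
H1f4 (chr13:23622559-23622708, minus strand): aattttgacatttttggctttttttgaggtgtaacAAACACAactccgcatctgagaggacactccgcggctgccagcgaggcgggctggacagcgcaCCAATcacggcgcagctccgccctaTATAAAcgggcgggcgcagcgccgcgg
CCAAT was present in 75% of the member promoters, against 33.8% of all 32851 listed promoters. It was in every matched H1, H2A, H2B and H3 promoter and in 3 of 12 H4 promoters. GGTCCG was in 9 of 12 H4 promoters, against 6.72% of all promoters. The octamer was in 5 of 13 H2B and 2 of 4 H2A promoters, against 1.60% of all. TATAAA was in 55.6% of the member promoters, against 12.4% of all. The H1 box was in 2 of 3 H1 promoters, against 6.25% of all. H4c17 and H4c18 shared a run of 149 identical bases within these 150. A match is a description of these letters and was not tied to binding.

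Values are read counts that the authors divided by 1 factor per sample, called normalized counts here. Recovered reads came to 6522742 to 13758643 per sample over the listed genes, and 1541 to 18865 of these fell on the 41 members. The median member had 13 to 17 reads in the unconditioned samples, 13 to 40 in the stromal samples and 113 to 196 in the adipocyte samples, so low members are known less precisely outside adipocyte medium. Every listed gene is also in a table of changed genes that the authors deposited. Their deposited adipocyte table holds 40 members, all higher (log2 1.31 to 5.34), and their deposited stromal table holds only H2bc21, at -1.73. The names of those tables give a fold change limit, whereas the calls below use adjusted p alone, so the counts are not alike. The authors' deposited clusters put 40 members in cluster 1, with 920 genes in all, and H2bc21 in cluster 3. All 41 members passed the minimum mean of 1 normalized count, as did 2868 genes in all. RefSeq (GRCm38.p6) lists 63 protein-coding genes with symbols of this kind, and 40 of them are in the table under that symbol. These are 13 of 13 H4 genes, 14 of 16 H2B genes, 6 of 12 H3 genes, 3 of 5 H1 genes and 4 of 17 H2A genes. H2bc24 is the member not found under that symbol, and the genes outside the table were not analysed here.

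In adipocyte medium nearly all members were higher than in unconditioned medium. On log2(normalized count + 1) with limma, 40 of 41 rose, 0 fell and H2bc21 did not pass an adjusted p of 0.05. Of all 2868 genes tested, 33.8% were called higher and 63.4% lower, 97.2% in all. The median log2 fold change was 3.12 over the members and -1.03 over all genes tested. By class, 3 of 3 H1, 4 of 4 H2A, 14 of 15 H2B, 6 of 6 H3 and 13 of 13 H4 genes rose, with medians of 2.06, 2.62, 3.36, 2.93 and 3.72. For the same 40 genes, all 3 adipocyte samples were above all 3 unconditioned samples (33.6% of all genes tested), and every mouse showed the rise. Members made up 2 of the 10, 15 of the 50 and 25 of the 100 largest rises. Because 3 samples against 3 cannot give an exact permutation p below 0.1, single genes were tested only in the fit over all genes. The authors selected the listed genes partly on this contrast, so the count is not independent of that selection.

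**Figure D1:**
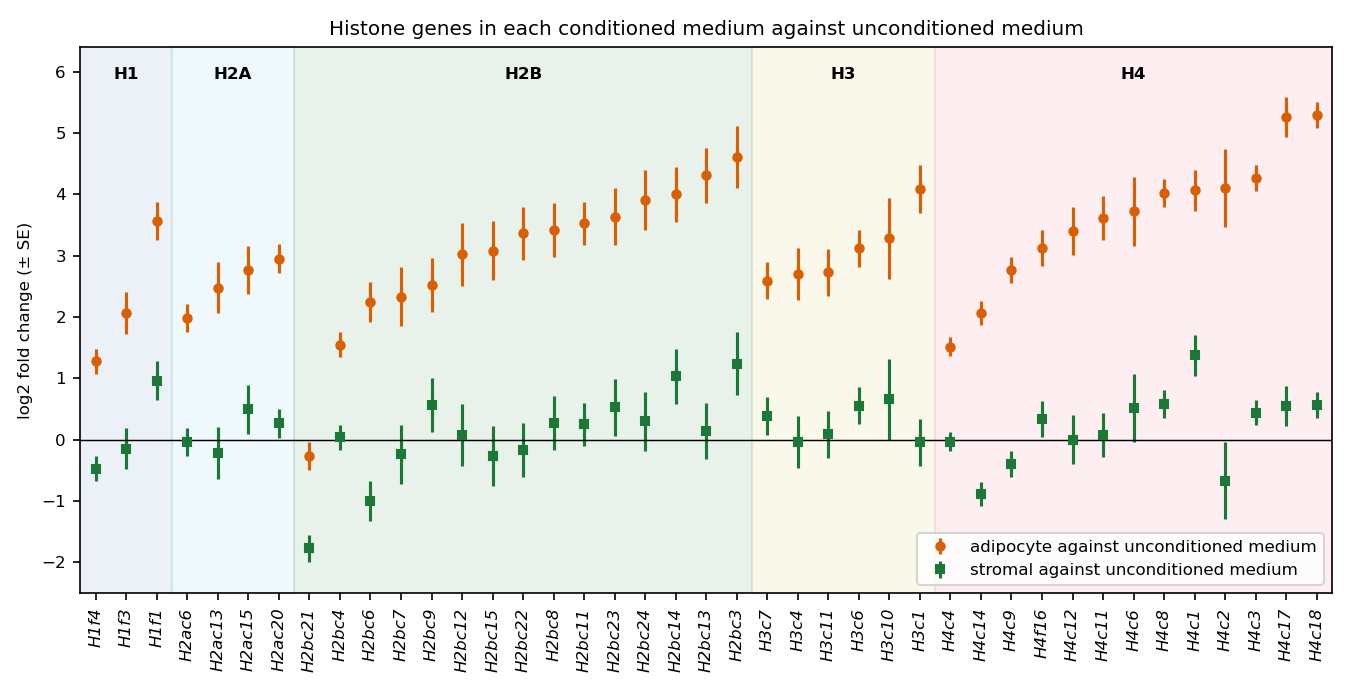
Log2 fold change (y axis, with SE) of each of the 41 genes (x axis, by class) in adipocyte (circles) and stromal (squares) against unconditioned medium, from 3 samples per medium. In adipocyte medium values ran from -0.26 for H2bc21 to 5.30 for H4c18, while stromal values ran from -1.77 to 1.37.

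H4c18 had the highest level per length of all members in adipocyte medium. It stood at 71.4, 77.4 and 81.6 normalized counts in the unconditioned samples of mice 1, 2 and 3, and at 3082, 2496 and 3715 in their adipocyte samples. The groups lay far apart, with means of 76.8 ± 5.09 and 3097 ± 610 (SD, n = 3), a 40.3-fold difference (log2 5.30, SE 0.21, limma adjusted p = 3.04e-09). H4c17, singled out after its values were seen, is a near-identical copy: its mean went from 34.7 ± 12.3 to 1338 ± 280. Only 14.4% of the 50-base stretches of H4c18 and 10.2% of those of H4c17 occur nowhere else among the GENCODE transcripts, and 317 stretches are common to both. The sources used here do not say how the authors' counting split such reads between them, so each value is uncertain.

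H4c4 was the H4 gene with the highest level per length in unconditioned medium and rose least in its class. It measured 395.6, 507 and 369.6 normalized counts in the unconditioned samples and 1254, 1066 and 1303 in the adipocyte samples, which is 2.85-fold (log2 1.52, SE 0.15, limma adjusted p = 8.52e-07). H4c1 was low in unconditioned medium, at 7.14, 6.95 and 13.3, and reached 157, 130.5 and 207 in adipocyte medium (log2 4.06, SE 0.34). H4c14, on chromosome 3 in the GENCODE vM21 annotation, went from 117, 124 and 135 to 618, 401 and 585 (log2 2.06, SE 0.20). For H4c4, H4c1 and H4c14 the lowest adipocyte sample lay above the highest unconditioned one. H4c2 was near the limit of detection, with 3, 2 and 2 reads in the unconditioned samples, and had 42, 44 and 82 reads in the adipocyte samples. The remaining H4 genes rose by log2 2.77 to 5.27. No full GGTCCG lay in the searched bases of H4c1, H4c2 and H4c8. Their log2 fold changes of 4.06, 4.10 and 4.03 fell inside the range of the other H4 genes. For H4c8 those bases end in a partial match cut off at the annotated start, so the element may be present there.

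Among H2B genes, H2bc3 rose most and H2bc21 was the exception. H2bc3 had 3, 4 and 1 reads in the unconditioned samples and 51, 69 and 140 reads in the adipocyte samples, or 73.3, 62.1 and 137 normalized counts (log2 4.61, SE 0.51, limma adjusted p = 2.0e-06). Its size is therefore loosely determined, although the groups did not overlap. H2bc4, the H2B gene with the highest level per length in every medium, went from 210.0, 261 and 253 to 797, 603 and 726 (log2 1.55, SE 0.20). H2bc21 stood at 304, 381 and 417 in unconditioned and at 302, 274 and 339 in adipocyte medium. These groups overlapped, although the adipocyte value was the lower in each of the 3 mice (log2 -0.26, SE 0.23, 95% interval -0.75 to 0.23, limma adjusted p = 0.274). After rescaling to the median of the listed genes it was higher in adipocyte medium, at log2 0.66 (limma adjusted p = 0.0213), which made 41 of 41 members higher. That rescaling raised the median of all genes by log2 0.93 in this comparison. The list holds only genes called changed, so the sign of H2bc21 depends on the scaling. H2bc13 rose by log2 4.31, from 2.86, 4.35 and 2.66 to 79.1, 63.9 and 112. It had only 2, 5 and 3 reads in the unconditioned samples, and 17.2% of its 50-base stretches occur nowhere else, so this size is also loosely determined. H2bc6 rose by log2 2.25, from 52.8, 60.0 and 94.8 to 296, 296 and 379, but its annotated exons overlap those of H1f4 on the same strand and share 447 of the 50-base stretches, so reads of the pair may be mixed.

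The H3 genes rose by log2 2.59 to 4.09 and the H2A genes by 1.98 to 2.95. H3c1 rose most in its class, from 18.6, 24.3 and 10.6 normalized counts in unconditioned medium to 338, 228 and 363 in adipocyte medium. H3c6 went from 31.4, 50.4 and 22.2 to 295, 251 and 339. H3c7 had the smallest H3 rise, from 35.7, 33.0 and 20.4 to 164, 151 and 232. H3c6 and H3c7 have 497 of the 50-base stretches in common, so reads of the pair may be mixed. Only 26.6% of the stretches of H3c6 and 50.7% of those of H3c7 occur nowhere else. All 6 H3 genes had separate groups, and the unconditioned sample of mouse 3 was the lowest for H3c1, H3c6 and H3c7. H2ac20, on chromosome 3, went from 47.1, 50.4 and 32.8 to 342, 283 and 396. H2ac6 went from 80.0, 76.5 and 78.0 to 380, 219 and 361, the smallest log2 rise of the 4 H2A genes. H2ac13 rose by log2 2.48, from 30.0, 26.1 and 19.5 to 164, 112 and 159, and H2ac15 by 2.76, from 7.14, 10.4 and 7.98 to 53.2, 51.3 and 90.9. All 4 H2A genes share exon bases with another annotated gene, in part on the other strand, and no strand setting of the counting is known here. H3c10 rose by log2 3.28 with an SE of 0.66, from 8.57, 10.4 and 1.77 to 53.2, 47.7 and 105, and only 6.08% of its 50-base stretches occur nowhere else. For H2ac13 that share was 9.88%.

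The 3 H1 genes differed in both level and size of rise. H1f4, a common linker histone gene, was already at 329.9, 429 and 369.6 normalized counts in unconditioned medium and reached 946, 679 and 1165 in adipocyte medium. Its log2 rise of 1.28 (SE 0.21, limma adjusted p = 5.82e-05) was the smallest of the 40. H1f3 went from 31.4, 46.9 and 43.4 to 163, 129 and 237 (log2 2.06, SE 0.34). H1f1, whose variant is known from lymphoid tissue and testis, went from 8.57, 10.4 and 7.98 to 114, 109 and 128 (log2 3.56, SE 0.31). All 692 of the 50-base stretches in the H1f1 transcript are found in no other gene of the GENCODE vM21 transcripts.

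**Figure D2:**
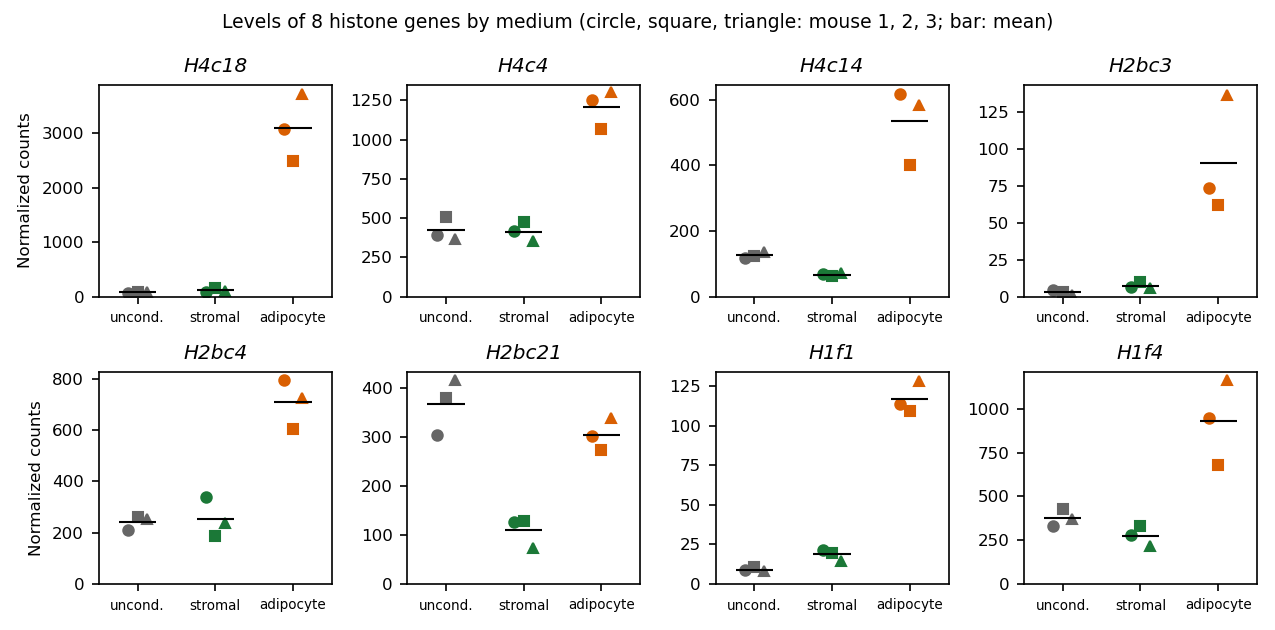
Normalized counts (y axis, from 0) of 8 members in each medium (x axis), with 1 symbol per mouse and a bar at the mean of 3 samples. H4c18 went from a mean of 76.8 to 3097 in adipocyte medium, while H2bc21 had its lowest mean, 109, in stromal medium.

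Summed over all 41 members, the level rose from 2432 ± 215 normalized counts in unconditioned to 15692 ± 2845 in adipocyte medium, 6.45-fold. The sum was 2202, 2628 and 2465 in the unconditioned samples and 15893, 12751 and 18431 in the adipocyte samples. H4 sums rose 10.5-fold, H3 sums 8.75-fold, H2A sums 5.60-fold, H2B sums 3.18-fold and H1 sums 2.87-fold. The H2B sum includes H2bc21 and the H1 sum is mostly H1f4, both high before treatment. H4 genes held 39.4% ± 0.70 of the histone sum in unconditioned medium and 64.1% ± 0.33 in adipocyte medium. Over the same step the H2B share went from 31.5% ± 3.09 to 15.6% ± 0.50 and the H1 share from 17.5% ± 0.91 to 7.73% ± 0.56. H4c18, H4c17 and H4c3 alone, chosen after their values were seen, went from 8.06% ± 0.93 to 38.7% ± 0.56. These sums and shares carry no test. They cover listed genes only: of the RefSeq genes, 13 of 13 H4 but 6 of 12 H3, 4 of 17 H2A and 3 of 5 H1 genes are listed. The class sums, their folds and the shares therefore depend on which genes the authors' selection kept. Among the adipocyte samples, mouse 2 was the lowest for 39 of 41 members and mouse 3 the highest for 33. How many of all listed genes have this order was not counted, so it is not shown to be particular to the members. The members held 0.132%, 0.119% and 0.158% of the summed normalized counts of all listed genes in the adipocyte samples of mice 1, 2 and 3.

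**Figure D3:**
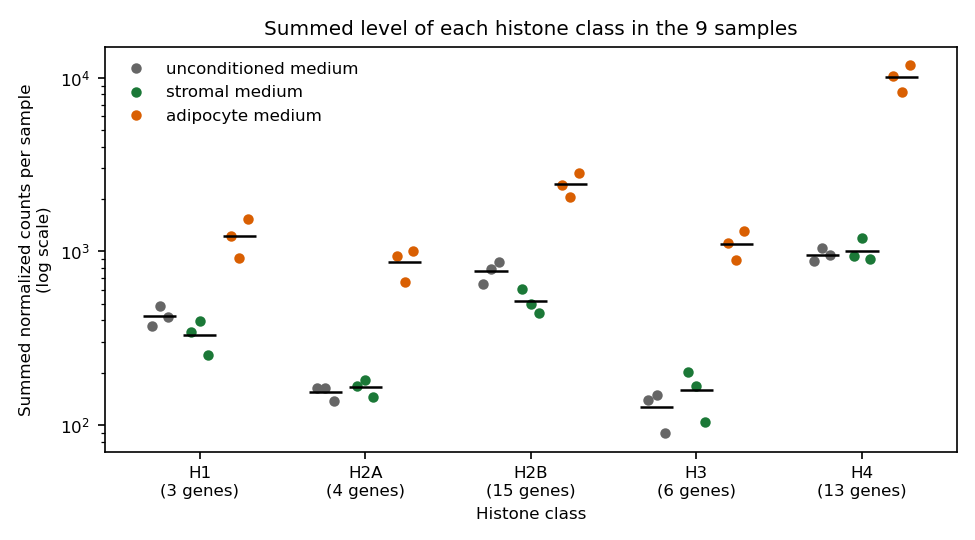
Summed normalized counts of each histone class in each of the 9 samples (log y axis), with a bar at the mean of 3 samples per medium. All 5 class sums were higher in each adipocyte sample than in any other sample, most of all for H4 (10059 against 958 in unconditioned medium).

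**Figure D4:**
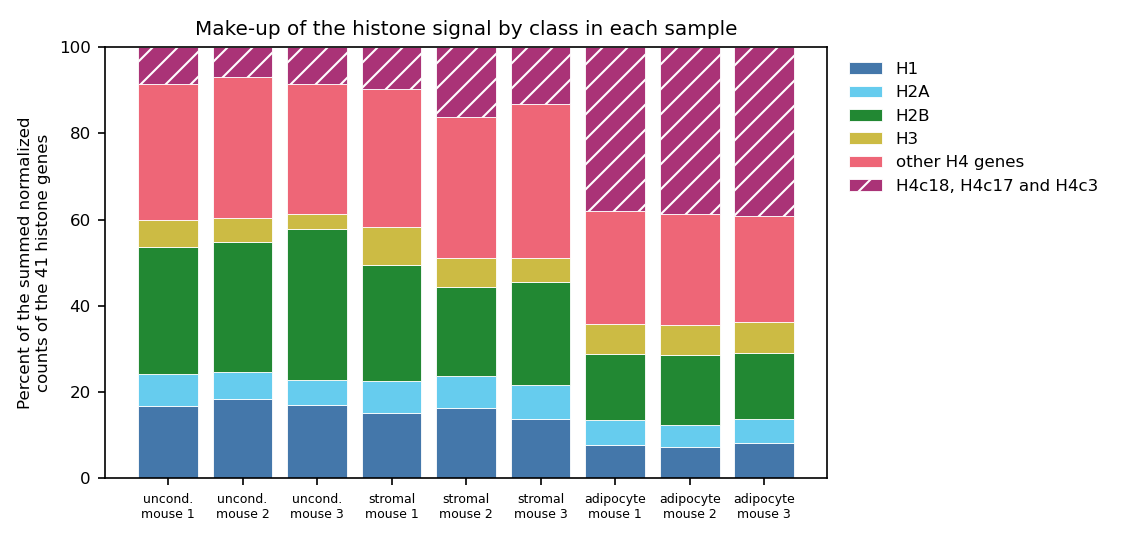
Share of the summed normalized counts of the 41 genes (y axis, percent) held by each class in each sample, with H4c18, H4c17 and H4c3 hatched. These 3 genes held 8.06% on average in unconditioned medium, 13.1% in stromal medium and 38.7% in adipocyte medium. Only listed genes are counted, so the shares depend on which genes of each class were listed.

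Per length of annotated exon, the order of the members changed with the medium. In unconditioned medium the highest mean levels were those of H4c4 at 373, H2bc4 at 209, H1f4 at 195, H4c18 at 179 and H2bc21 at 140 normalized counts per kb. In adipocyte medium H4c18 led at 7203, followed by H4c17 at 3329, H4c3 at 1991, H4c8 at 1532 and H4c4 at 1061. H2bc21 moved from position 5 to position 32 of 41 at 140 and 116 normalized counts per kb, as others rose past it. Lengths are those of the GENCODE vM21 models, which run far past the coding region for some members. A transcript that ends early would be understated per kb in such a model.

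Members with long annotated ends had a higher median level in unconditioned medium and a smaller median rise. The 18 members whose models run at least 300 bases past the last coding base, a limit chosen after the values were seen, had a median log2 rise of 2.55 and a median unconditioned level of 62.0 normalized counts. The other 23 had medians of 3.53 and 8.52. Per length the gap in level was smaller, with medians of 27.5 and 16.9 normalized counts per kb in unconditioned medium, and it was the other way round in adipocyte medium, at 150 and 220.2. The ranges overlap widely, from -0.26 to 4.26 for the long models and from 2.33 to 5.30 for the short ones. The long group holds H2bc21, H2bc4, H1f4 and H4c4, and also H4c3, which rose by log2 4.26. Uniqueness of sequence differs between members as well: the 9 members with under 20% of their 50-base stretches unique had a median log2 rise of 3.64, and the 12 with at least 75% unique had 2.38. Both sets are descriptions, and the part of read sharing or of low starting levels in them was not tested. H1f3, H4c14 and H4f16, with 97.7%, 99.0% and 92.9% of stretches unique, rose by log2 2.06, 2.06 and 3.12.

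**Figure D5:**
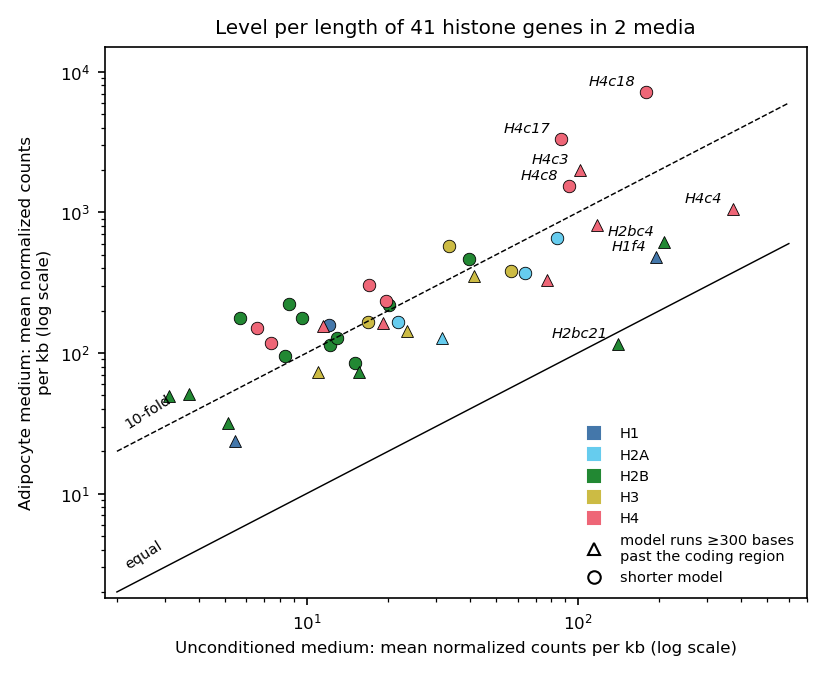
Mean normalized counts per kb of exon of the 41 genes in unconditioned (x axis) and adipocyte (y axis) medium, both on log scales, with color by class and shape by length of the model past the coding region. H2bc21 lies just below the line of equal level (140 and 116), and H4c18 lies farthest above it (179 and 7203).

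In stromal medium most members did not pass the test against unconditioned medium, and those that did went both ways under the authors' scaling. With limma, 4 of 41 rose, 3 fell and 34 did not pass, while 21.1% of all genes tested were called higher and 36.6% lower, 57.7% in all. After rescaling, which raised the median of all genes by log2 0.36, 10 members were higher and 2 lower. The median log2 fold change was 0.14 over the members and -0.17 over all genes. H4c1 rose by 1.37 (SE 0.34, adjusted p = 0.00387), H1f1 by 0.96 (SE 0.31), H4c8 by 0.59 (SE 0.23) and H4c18 by 0.56 (SE 0.21). H4c1 stood at 25.0, 26.4 and 21.6 normalized counts in the stromal samples, above the 13.3 of its highest unconditioned sample. H1f1 stood at 21.7, 19.8 and 14.4 and H4c18 at 86.0, 154 and 110.2, also without overlap with the unconditioned samples. For 6 members all stromal samples were above all unconditioned ones (25.1% of all genes tested), for 5 they were below (44.2%), and for 30 the groups overlapped.

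The 3 genes that fell in stromal medium were H2bc21, H2bc6 and H4c14. H2bc21 was at 126, 129 and 73.0 normalized counts in the stromal samples, each below its lowest unconditioned sample at 304 (log2 -1.77, SE 0.23, limma adjusted p = 3.22e-05). H4c14 was at 68.4, 62.7 and 70.6, against at least 117 in unconditioned medium (log2 -0.89, SE 0.20, limma adjusted p = 0.00194). H2bc6 was at 21.7, 52.8 and 31.1, just under its lowest unconditioned sample at 52.8, and fell by 1.00 on the log2 scale (SE 0.32). H1f4 was lower in every mouse but did not pass (log2 -0.47, SE 0.21, limma adjusted p = 0.0698). It did pass without stromal replicate 2, adipocyte replicate 2 or 3, or mouse 2 (limma adjusted p from 0.0335 to 0.0477). H2bc14, H2bc3, H3c6 and H4c3, not called in the main fit, were called higher in at least 1 fit with a library or mouse left out. Of the members on chromosome 3, H2bc21 and H4c14 fell and H2ac20 did not pass (log2 0.27, SE 0.23). H2bc21 and H4c14 passed in every alternative tried, whereas H4c18, H4c8, H1f1, H2bc6 and H4c1 each missed the threshold in at least 1 fit with a library or mouse left out. For H1f1 these were the fits without unconditioned replicate 3, without stromal replicate 1 and without any of the 3 mice (limma adjusted p from 0.0504 to 0.145). For H4c18 they were the fits without any unconditioned replicate, without stromal replicate 2 or 3, without adipocyte replicate 1 and without mouse 2 or 3 (0.0556 to 0.180). For H4c8 they were those without unconditioned replicate 1 or 3, stromal replicate 1 or 2, adipocyte replicate 1 or 3, and any mouse (0.0507 to 0.198). For H2bc6 they were those without unconditioned replicate 3, stromal replicate 1, mouse 1 or mouse 3 (0.0748 to 0.165), and it also missed the threshold after rescaling (log2 -0.65, limma adjusted p = 0.113). H4c1 missed it only with mouse 1 left out of all media (log2 1.22, limma adjusted p = 0.0558).

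Adipocyte and stromal medium differed for every member. With limma, 41 of 41 were higher in adipocyte medium, by log2 1.51 to 4.76, where 33.8% of all genes tested were called higher and 57.2% lower, 91% in all. The median was 2.95 over the members and -0.60 over all genes. In all 41 the lowest adipocyte sample was above the highest stromal one (33.4% of all genes tested, with 56.2% the other way round). H2bc21, unlike in the comparison with unconditioned medium, was included, at log2 1.51 (SE 0.23, adjusted p = 4.11e-05), since its stromal level was the lowest of its 3 media. H4c2 had the largest value, log2 4.76 (SE 0.63), but rests on 4, 2 and 0 reads in the stromal samples. The 0 allows up to 3.59 normalized counts, taking 3 reads as the limit, and covers counting error only. H4c18 (log2 4.74, SE 0.21) and H4c17 (log2 4.71, SE 0.32) came next, followed by H2bc13 at 4.17 and H3c1 at 4.13. The value of H2bc13 rests on 3, 8 and 3 reads in the stromal samples. The smallest differences were those of H2bc4 at 1.51, H2bc21 at 1.51 and H4c4 at 1.55. Members made up 4 of the 10 and 32 of the 100 largest differences in this direction. This comparison and the first share the adipocyte samples, so they are not independent. In addition, 40 of the 41 members are in the sample table through the authors' list of genes changed in adipocyte medium, which was made from these samples and had them all higher, so this count was largely set by that selection.

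Tested genes of DNA replication moved both ways in adipocyte medium, and those of mitosis were lower under the authors' scaling. Of a list of 63 S phase genes, 12 were tested: 4 rose and 8 fell in adipocyte medium, with a median of -1.06 beside -1.03 over all genes, of which 63.4% fell. After rescaling to the median of the listed genes, 4 were higher and 1 was lower. Ccne2, a cyclin of S phase entry, rose by log2 1.44 and Dbf4, a kinase subunit that fires replication origins, by 1.21. E2f2, a transcription factor of the cell cycle, fell by 1.84 and Pold1 by 1.06. Of 44 G2 and mitosis genes, 26 were tested and 26 fell, with a median of -1.43. Birc5 fell by 1.95, Hmmr by 2.17 and Ube2c by 1.92 on the log2 scale. After rescaling, 16 of the 26 mitosis genes were lower. In stromal medium 21.1% of all genes tested were called higher and 36.6% lower, 57.7% in all. Beside this, 4 of the 12 S phase genes rose and 3 fell, Pole2 rising by 1.89 and E2f1 by 1.00. Of the 26 mitosis genes 1 rose and 3 fell (4 higher and 0 lower after rescaling), a smaller share than over all genes. Of 27 genes of cell cycle inhibition and quiescence, 10 were tested, 7 rose and 2 fell in adipocyte medium, where 33.8% of all genes tested rose. Cdkn1a, the inhibitor p21, rose by 2.03 there and by 1.67 in stromal medium.

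Few genes of histone mRNA processing were in the table. Of 38 on the list, 6 were tested, and 3 rose and 3 fell in adipocyte medium. Of all genes tested 33.8% rose and 63.4% fell there, 97.2% in all, so being called there does not set these or the following genes apart. Srrt, a cap-complex partner in RNA processing, rose by log2 1.33, Tut4, a uridylyltransferase, by 1.24 and Cstf3, a cleavage factor subunit, by 0.86, while Cpsf3, the endonuclease that cuts histone pre-mRNA, fell by 1.29. Of 30 histone chaperone genes 3 were tested: Nasp, a chaperone of H3 and H4, rose by 0.90, and Tonsl and Chaf1b fell by 1.23 and 0.95. After rescaling, Cpsf3 was at -0.36 and still called, and Chaf1b was at -0.02 and not called. Of 26 replication-independent histone genes 2 were tested. H1f0, a linker histone of resting cells with polyadenylated mRNA, had 937, 1091 and 996 normalized counts in unconditioned, 447, 425 and 437 in stromal and 1204, 1031 and 1150 in adipocyte medium. Like H2bc21 it fell in stromal medium (log2 -1.20, SE 0.10) and did not pass in adipocyte medium (log2 0.16, SE 0.10), where it was called higher after rescaling (log2 1.09). Cenpa, the centromeric H3 variant, rose by 1.02 in adipocyte and fell by 0.60 in stromal medium, the fall being -0.25 and not called after rescaling.

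Tested markers of other cell types moved with the medium too, and their counts stand beside the 63.4% of all genes tested that fell in adipocyte medium. Tested were 11 of 22 B cell, 12 of 28 myeloid, 8 of 17 neutrophil, 4 of 15 erythroid, 3 of 12 natural killer and 6 of 20 T cell markers. The sample table holds only genes called changed, so these sums and counts do not describe the other markers on the lists. The summed level of 11 B cell markers was 11374 to 14859 normalized counts in unconditioned, 11945 to 17905 in stromal and 4316 to 5977 in adipocyte medium, and 11 of 11 fell in adipocyte medium. The sum of 12 myeloid markers was 5305 to 9762, 6248 to 12008 and 3190 to 4439 in the same order, with 10 lower and 1 higher. The sum of 8 neutrophil markers was 1950 to 2885, 1971 to 3438 and 318 to 1046, with 7 lower and 1 higher in adipocyte medium. For 4 erythroid markers it was 2774 to 2916, 4850 to 6486 and 4225 to 5751. In adipocyte medium Tfrc, which dividing T cells also express, and Gata1 rose by log2 1.09 and 0.74, Car1 and Ermap fell by 1.70 and 2.09, and the median was -0.48. The sum for 3 natural killer markers was 2365 to 2574, 1129 to 1527 and 1467 to 3002. The 6 tested T cell markers, Cd3e, Cd3g, Cd8a and Cd8b1 among them, summed to 115525 to 128248, 99169 to 102444 and 49529 to 50919, and 6 of 6 fell in adipocyte medium. After rescaling, 6 B cell, 6 myeloid, 5 neutrophil and 4 T cell markers were still lower in adipocyte medium, while 2 myeloid markers and 1 neutrophil marker were higher. No adipocyte marker of the 12 on the list was in the table, and of 12 stromal markers 1 was, Vim, which T cells also express. In these bulk samples fewer cells of a type and less RNA per cell cannot be told apart. The part of such changes in the histone results was not tested.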

How the data were processed

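RNA-seq of 9 samples (3 mice, 3 media) was analysed from the deposited tables. Per the labels' protocols, cDNA was made with SMART-seq v4 and libraries with Nextera XT. FastQC, Trimmomatic, featureCounts and DESeq2 appear in the submitters' processing notes, as do builds GRCm39, GRCh38 and hg38 without their roles. The aligner, annotation and strand setting were not given in the sources used here. In the sample table is a deposited signal per gene, counts divided by 1 factor per sample, as 100% of values are whole multiples of the sample's step within 0.001 reads. Its cluster number per gene is another value of the authors. Per the file headers, the authors' tables of changed genes hold a mean signal, a log2 fold change and its standard error, the Wald score, and p-values before and after adjustment.

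Values were analysed as log2(value + 1), which understates changes of low genes, with limma-trend (limma 3.58.1, R 4.3.3), over 2868 of 2889 genes with a mean of at least 1, all 9 samples in 1 fit with medium as the factor. Tests were two-sided, p-values were adjusted by Benjamini-Hochberg over all genes, and the threshold was 0.05. The fit was tested on simulated data in which most genes did not change. In these data 97.2% of genes tested were called in adipocyte against unconditioned medium, so that test says little about them. Alternatives were pseudocounts of 0.5 and 10, no filter, a mean of at least 20, a mouse block, rescaling by the median of ratios, edgeR 4.0.16 and DESeq2 1.42.0 on recovered reads, and leaving out samples. Per the labels, equal replicate numbers mark the same mouse; correlations of their deviations from the group means ran from -0.12 to 0.26. No pair of samples agreed within sampling noise (chi-square per degree of freedom 10.3 to 97.7).

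The members and gene lists were chosen with earlier results of these data known. Values per sample are given, in each class, for the 2 members with the highest means, for those with the largest and smallest fold change in each comparison, and for those called against most of their class; up to 4 genes with the smallest adjusted p were eligible for naming from each list. Stem-loops, lengths and 50-base stretches come from GENCODE vM21 transcripts, where symbols were matched through older names, and promoters from RefSeq (GRCm38.p6).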

Additional observations from a re-analysis of the deposited data

How the results depend on the processing

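The count of members called was 40 in adipocyte against unconditioned medium and 41 in adipocyte against stromal medium. These counts are close to the number of members, which the authors' selection favours, and 97.2% and 91% of all genes tested were called, so they had little room to move and say little of stability. With a mean of at least 20 as the filter, 38 members were tested, and 37 and 38 were called. The mouse block, which pairs samples of the same mouse, changed no count (40 in adipocyte against unconditioned, 7 in stromal against unconditioned and 41 in adipocyte against stromal medium). On the recovered reads edgeR called 40, 7 and 41 members in that order, and DESeq2 40, 8 and 41. Rescaling by the median of ratios over the listed genes moved the median of all genes by 0.93 in adipocyte against unconditioned, 0.36 in stromal against unconditioned and 0.57 in adipocyte against stromal medium. Such rescaling takes the middle of the listed genes as unchanged, whereas every listed gene is in an authors' table of changed genes. Calls after rescaling therefore depend on that choice and do not show which scaling is right. The rescaling turned H2bc21 in adipocyte against unconditioned medium from -0.26 to 0.66 (limma adjusted p = 0.0213). In stromal against unconditioned medium the rescaling gave 12 calls in place of 7, 10 of them higher and 2 lower in place of 4 and 3. H2bc6 was then at -0.65 and not called. Leaving out 1 library or mouse at a time gave 3 to 8 calls, 1 to 5 of them higher and 2 to 4 lower, and the cause was not tested. Without unconditioned replicate 3, 3 members were called in all and 1 higher, and without stromal replicate 1, 4 in all and 2 higher. Without stromal replicate 2, and without adipocyte replicate 1, 2 were called higher. With mouse 1, mouse 2 or mouse 3 left out of all media, 1, 1 and 2 were called higher. Depth limits comparisons of the low members, since 5 to 19 members had under 10 reads in each unconditioned or stromal sample.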
